A study of Mus musculus with 24 samples.

Results

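The cells described here are astrocytes of mouse motor cortex and dorsal striatum, chosen by their measured levels of 11 genes in single-cell RNA libraries of both regions. A cell was kept when its UMIs (unique molecular identifiers, which count captured transcripts) for Aldoc, Slc1a2, Gja1 and Ntsr2 summed to at least 6, when it held at least 1 UMI of Gjb6, Fgfr3 or Aqp4, when it held at most 3 UMIs of the neuronal gene Snap25, and when Pdgfra, Cx3cr1 and Top2a were at 0. The rule took 5654 of 103715 cells that passed the quality filter, 2949 of 50361 in motor cortex and 2705 of 53354 in striatum.

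Astrocytes clear glutamate and potassium from the space around synapses, feed neurons with lactate and lipids, and secrete proteins that shape synapse formation. Cortical astrocytes arise from pallial progenitors and striatal astrocytes mostly from subpallial ones, and adult astrocytes keep transcription factors and secreted proteins that differ by region. Crym, which encodes the thyroid hormone binding protein mu-crystallin, is a known marker of striatal astrocytes.

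The mice carried the Ai9 reporter with an activity-dependent CreER. Fos-CreER was used where motor cortex was taken, and Arc-CreER where dorsal striatum was, so that region and driver line cannot be told apart. Early mice were trained for 2 days and late mice for 8 days on a forelimb reaching task, and all mice, the untrained controls included, were given 4-hydroxytamoxifen, with tissue taken 3 days after labelling. Tissue was digested with papain and dead cells were removed. Each pool held 2 mice, named by an M and an F number in the labels, and the hemispheres of a pool were run as separate libraries. There were 2 pools for each of the 6 combinations of region and stage, 12 pools in all, and 23 of 24 libraries were used, since the right hemisphere of striatal control replicate 1 was not analysed here. The hemispheres of a pool were summed and the pool was the replicate; nothing in the labels ties a cell to 1 mouse.

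Pools held 99 to 1641 gated astrocytes with 185183 to 2861606 UMIs in all. The labels give 2 versions of the 10x chemistry without saying which library used which; shared cell barcodes put replicate 1 of the control and late groups of each region in 1 class and the other 8 pools in another, and this class was a term in the fits. Only 2 sequencing batches held both regions, and the others held a single region each. Batch was not a term in the main fits, so that region and batch are largely not told apart there. Gated astrocytes of different libraries shared 5 barcodes over 253 pairs of libraries, where 3.89 were expected. A doublet caller marked 207 of the gated astrocytes (3.66%), which were kept. There were 3 pools that stood apart before any comparison. Motor cortex late replicate 1 held 1641 of the cells, motor cortex control replicate 1 held 99 and no cell with Xist alone although its label carries an M and an F number, and striatal late replicate 1 held far more neuronal RNA in its gated astrocytes and microglia, as given below.

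Of the 15 astrocyte markers listed for a check of the cells, 7 belong to the gate and were fixed by it. The 8 markers outside the gate, among them Slc1a3, Glul, Aldh1l1 and Sox9, were all detected. They summed to 8379 to 9495 CPM (a gene's UMIs over all UMIs of the summed cells, on the usual per-library scale) in the gated cells of the motor cortex pools and to 5778 to 8538 CPM in the striatal pools. In gated microglia of the same pools these 8 summed to 461.9 to 1003 CPM and in gated neurons to 34.1 to 99.3 CPM. A group of striatal cells stood apart.

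In the striatal pools 139 of the 2705 gated cells held 3 or more UMIs of 5 ependymal markers, and 136 of these held 8 or more, while no motor cortex cell held more than 1. Ependymal cells line the ventricles, which border the striatum, and carry motile cilia. Foxj1 and Tmem212 are among the markers that picked these cells, so their levels only describe the choice. In the 139 cells Foxj1, the regulator of motile cilia, stood at 853 CPM, against 7.69 CPM in the other gated striatal cells, and Tmem212 at 1908 against 0.179 CPM. Of the gate's genes Gja1 (952 CPM) and Aqp4 (939 CPM) stood highest in them, against 1449 and 618 CPM in the other gated striatal cells. The gap junction gene Gjb6, a defining astrocyte gene, was nearly missing from them (4.61 against 385 CPM), and so was the neurotensin receptor gene Ntsr2 (21.2 against 1276 CPM). Their share of a pool was 0 and 2.1% in the control striatal pools, 10% and 8.67% in the early pools and 4.86% and 3.37% in the late pools. They were large, with a median of 6319 UMIs against 1985, and gave 16.2% of all gated striatal UMIs. Slc1a3, an astrocyte glutamate transporter that neither the gate nor the ependymal markers used, stood at 525 against 3040 CPM. Leaving these 139 cells out was a step added after seeing the data. The counts of the region, stage and hemisphere comparisons in striatum and of the gene lists are given as gated and without them, and the test against microglia as gated only.

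**Figure D1:**
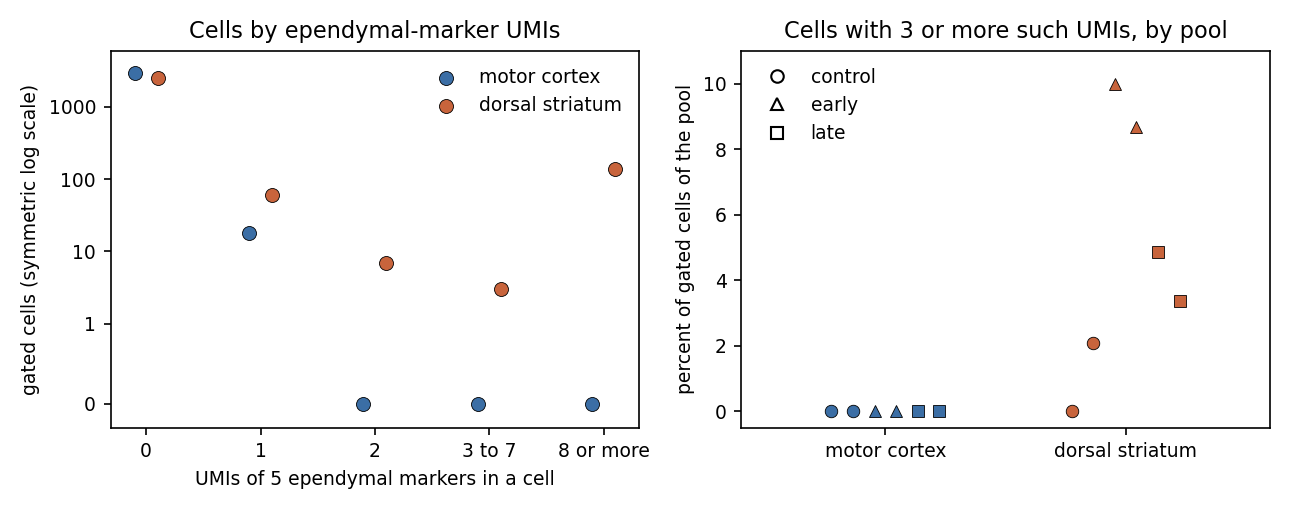
Gated cells by the number of UMIs of 5 ependymal markers they hold (left; cells on a symmetric log scale) and the percent of each pool's gated cells with 3 or more such UMIs (right; 1 point per pool, shape by stage). All 139 cells with 3 or more were striatal, and the early striatal pools sit highest, at 10% and 8.67%.

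Gated cells made up 5.26% ± 2.10 (SD, n = 6) of passing cells in the striatal pools and 4.86% ± 4.03 (SD, n = 6) in the motor cortex pools, a difference of 0.398 percentage points (exact permutation test, two-sided, p = 0.831). The motor cortex shares ran from 1.94% to 11.8% with a median of 2.85%, and the striatal shares from 1.58% to 7.4% with a median of 5.61%, so the regions overlapped throughout. The median UMI count per gated cell was 1917 ± 422 (SD, n = 6) in striatum and 1864 ± 497 (SD, n = 6) in motor cortex (exact permutation test, two-sided, p = 0.818). The difference of 53.1 UMIs was smaller than the spread between pools.

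The genes of the gate chose the cells, so their levels are a description. Without the ependymal-marker cells Slc1a2, the main glutamate transporter of astrocytes, averaged 7001 ± 1747 CPM (SD, n = 6) in motor cortex and 7926 ± 2389 CPM in striatum. Aldoc, a glycolytic enzyme, averaged 3660 ± 681 and 3000 ± 639 CPM. Ntsr2 averaged 1452 ± 223 and 1238 ± 220 CPM, and Gja1, the connexin 43 gene, 1324 ± 159 and 1371 ± 324 CPM. Gjb6, the connexin 30 gene, averaged 899 ± 184 CPM in motor cortex and 415 ± 131 CPM in striatum, and its motor cortex pools (712 to 1082 CPM) lay above all striatal pools (272 to 657 CPM). The edge of the marker sum was sparsely filled: 88 cells fell just outside at a marker sum of 5, and 84 lay just inside at a sum of 6. Other conditions left out more cells. Those lost by a single condition numbered 1000 for Gjb6, Fgfr3 and Aqp4 all at 0 and 462 for Snap25 above 3. They numbered 131 for Pdgfra, 181 for Cx3cr1 and 91 for Top2a above 0.

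The 2 regions differed in many genes. With edgeR's quasi-likelihood test and Benjamini-Hochberg adjustment, 2892 of 11284 genes tested (25.6%) differed between striatum and motor cortex as gated, 1726 higher in striatum (15.3%) and 1166 higher in motor cortex (10.3%). Without the 139 ependymal-marker cells the count was 1721 of 10463 (16.4%), 876 higher in striatum (8.37%) and 845 higher in motor cortex (8.08%). Of these, 1617 were called in both fits and all 1617 in the same direction, 55.9% of the genes called as gated and 94% of those called without the cells. Among the 1726 genes higher in striatum as gated, 883 (51.2%) stood at least 2 times higher in the ependymal-marker cells than in the other gated striatal cells, against 15.9% of all genes tested. Those cells are part of the striatal sums compared, so this share describes the called genes and is no test. The count as gated fell to 1575 without the term for kit class, to 721 in the batches that held both regions, and to 1794 without motor cortex control replicate 2. Without the ependymal-marker cells it fell to 985 without motor cortex control replicate 2 and to 1029 without motor cortex late replicate 1. The same contrast called 529 of 11582 genes (4.57%) in gated microglia, with 3.3% higher and 1.27% lower in striatum, and 126 of 12518 (1.01%) in gated oligodendrocyte precursors, with 0.655% higher and 0.351% lower.

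Free RNA of broken neurons can enter any droplet, so genes were named only where astrocytes stood at least 4 times above microglia and no lower than neurons in the region where the gene was higher. The rule also asked for a call, a log2 difference of at least 1 and no overlap between the pools of the regions. Without the ependymal-marker cells the pools did not overlap in 510 of 10463 genes tested (4.87%). Without the ependymal-marker cells 172 genes met the whole rule, 64 higher in striatum and 108 higher in motor cortex, and the 15 with the smallest adjusted p in each direction were taken. Of these 30 genes, called the named genes here, all were called in each of the 12 fits that left out 1 pool, and 29 were called in the sequencing batches that held both regions, where Id3 was not (adjusted p = 0.0674, edgeR). These are 2 batches with 1 pool of each region, 4 pools in all, and 332 of 8373 genes were called in that fit (3.97%). In a direct test, on the cells as gated, of whether the region difference in astrocytes exceeded that in microglia, 15 of the 30 were called, beside 1223 of all 12569 genes tested (9.73%, with 4.99% higher in astrocytes relative to microglia and 4.74% lower), a count that fell to 785 without motor cortex control replicate 2 and to 752 without motor cortex late replicate 1. The rule used this contrast, so these counts describe the chosen genes and nothing is read from them.

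Crym led the named genes higher in striatum by adjusted p. It stood at 0 to 25.4 CPM in the motor cortex pools, with a median of 2.3 CPM, and at 968 to 1605 CPM in the striatal pools, with a median of 1217 CPM. The highest motor cortex pool was early replicate 2, and every striatal pool lay above every motor cortex pool, as the rule asked. The fitted log2 difference was 8.05 (SE 0.37, edgeR adjusted p = 1.82e-11). With motor cortex levels this close to 0 the size was loosely set: it ran from 7.55 to 10.11 with 1 pool left out and was 6.44 in the batches that held both regions, called in each. With each cell thinned to 1000 UMIs, Crym was found in 40.7% of striatal astrocytes and 0.464% of motor cortex astrocytes, as means over pools (48.6% and 0.836% unthinned). In thinned microglia of the striatal pools the share was 1.27% and in striatal neurons 14.9%. The gene lies on chromosome 7 (120186380 to 120202111, minus strand, GRCm38).

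Six3, a homeobox transcription factor of the ventral forebrain, gave 639 UMIs in the striatal astrocytes and none in motor cortex. Against the floor of 3 UMIs over the motor cortex cells (0.515 CPM) its level was at least 221.8-fold higher in striatum. The 6 striatal pools were close to each other, from 97.4 to 137 CPM. Striatal neurons held it at 232 ± 27.1 CPM (SD, n = 6), above the 116 ± 16 CPM of striatal astrocytes, so that it did not meet the rule, and it is described here as a member of the patterning list. It was found in 10.7% of thinned striatal astrocytes (18.9% unthinned), 19.9% of thinned striatal neurons and 0.547% of thinned striatal microglia. In gated oligodendrocyte precursors it averaged 0.0599 CPM in motor cortex and 52.1 CPM in striatum. Six3os1, the RNA transcribed from the opposite strand with an overlapping span, met the rule with 561 UMIs against none, at least 194.7-fold higher in striatum. Oligodendrocyte precursors held Six3os1 at 0.0599 CPM in motor cortex and 19.3 CPM in striatum. The sources used here do not say how reads on opposite strands were counted, so the pair may share reads.

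The other genes higher in striatum included secreted proteins, enzymes and further regulators. Lmo1, a LIM-only cofactor of transcription, ran from 3.49 to 14.3 CPM in motor cortex and from 62.2 to 165 CPM in striatum (log2 difference 3.61, SE 0.20, edgeR adjusted p = 3.3e-10). Thbs4, the thrombospondin 4 gene, stood at 0 to 12.5 CPM in motor cortex and at 31.6 to 151 CPM in striatum (log2 difference 4.07). Thbs4 was found in no more than 0.0606% of thinned microglia or neurons, as region means.

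Id3, a target of BMP signalling, was well detected in both regions. Its motor cortex pools ran from 501 to 1168 CPM and its striatal pools from 1618 to 3818 CPM (log2 difference 1.53, edgeR adjusted p = 1.56e-06). Igfbp5, which encodes a secreted binding protein of insulin-like growth factors, ran from 54.2 to 137 CPM in motor cortex and from 209 to 473 CPM in striatum. Prss56, Zfhx4, Mgst1, Acot1, Miat and Gdf10 were also higher, with log2 differences from 1.57 for Acot1 to 5.25 for Prss56. Gdf10 encodes a TGF-beta family ligand.

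Markers of neuroblasts moved with these genes. The 9 neuroblast or progenitor markers, with Top2a at 0 by the gate, summed to 127 to 200 CPM in the motor cortex pools and to 321 to 688 CPM in the striatal pools. With the cells holding 3 or more neuroblast-marker UMIs also left out, all 30 named genes were still called. The log2 differences were then 8.31 for Crym, 3.66 for Lmo1, 4.06 for Thbs4 and 1.65 for Id3. The rule used this contrast, so the count only describes the chosen genes. The part of neuroblast RNA in the cells that remained was not tested.

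Slc25a18, a mitochondrial glutamate carrier, led the named genes higher in motor cortex by adjusted p. It stood at 264.6 to 457.3 CPM in the motor cortex pools, with a median of 398 CPM, and at 12.9 to 35.3 CPM in the striatal pools, with a median of 24 CPM. No pools overlapped, as the rule asked, and the log2 difference was -4.07 (SE 0.22, edgeR adjusted p = 2.46e-10). It was found in 29% of thinned motor cortex astrocytes and in 1.96% of thinned striatal ones (49.6% and 4.45% unthinned), with 0.136% in motor cortex microglia. The gene lies on chromosome 6 (120773578 to 120794336, GRCm38).

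Igfbp2, which binds insulin-like growth factors, ran from 194 to 621 CPM in motor cortex and from 12.9 to 53.9 CPM in striatum (log2 difference -3.89, SE 0.24, edgeR adjusted p = 1.52e-09). The lowest motor cortex value was that of control replicate 1, the pool with 99 cells. The transcription factor genes Dmrta2 (48.6 to 69.8 against 8 to 17.5 CPM) and Zic2 (24.1 to 75 against 3.31 to 4.63 CPM) were lower in every striatal pool. Their log2 differences were -2.46 and -3.65. In oligodendrocyte precursors Dmrta2 averaged 33.8 CPM in motor cortex and 10.6 CPM in striatum, and Zic2 1.6 and 1.9 CPM.

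Olig2, a factor of the oligodendrocyte lineage that some astrocytes also express, stood at 74.8 to 114 CPM in motor cortex and 17.5 to 33.1 CPM in striatum (log2 difference -1.88). In the gated cells 6 of 7 oligodendrocyte precursor markers were detected, with Pdgfra at 0 by the gate, and summed to 110 to 491 CPM in the motor cortex pools and 43.4 to 145 CPM in the striatal pools. The part of such cells in the Olig2 difference was not tested.

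The potassium channel subunit gene Kcnj16 ran from 41.2 to 78.2 CPM in motor cortex and from 6.62 to 18.7 CPM in striatum (log2 difference -2.74, edgeR adjusted p = 1.7e-07). Insig1, which holds back sterol synthesis, averaged 330 ± 56.4 CPM in motor cortex and 92.5 ± 28.8 CPM in striatum (SD, n = 6 each; log2 difference -1.82). Lgi1, a secreted protein linked to epilepsy, averaged 162 ± 31.1 and 38.1 ± 13.3 CPM. The remaining genes were Ptchd4, Unc13c, Mir124-2hg, Ranbp3l, Greb1, Car8 and Kank1, with log2 differences from -4.47 for Greb1 to -1.70 for Car8.

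**Figure D2:**
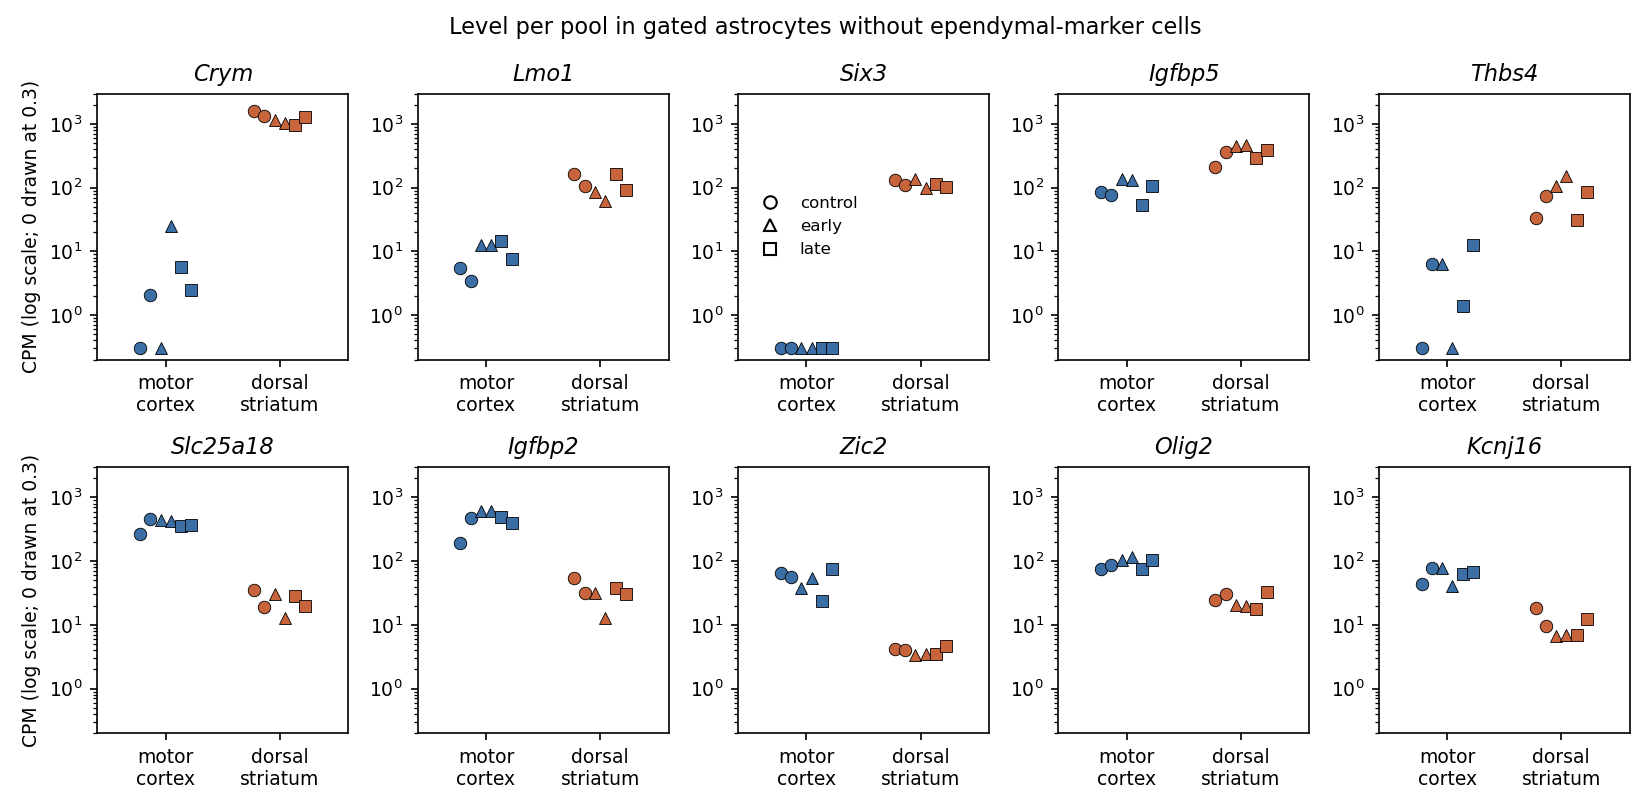
Level of 10 genes in each of the 12 pools, in gated astrocytes without the ependymal-marker cells (CPM on a log scale, with 0 drawn at 0.3; 1 point per pool, shape by stage, blue for motor cortex and red for striatum). No gene shown has a motor cortex pool at the level of a striatal pool, and Six3 is at 0 in all 6 motor cortex pools. The rule of the named genes, which took each gene shown but Six3, asked for no overlap of the pools.

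Promoter bases are shown for 2 regulators higher in striatum and for 2 genes higher in motor cortex, as the stretch of 250 bases just before the RefSeq start site (GRCm38.p6), 5′ to 3′ on the gene's strand. Capitals mark matches on either strand to TAATTA, a homeodomain core, and to TTGGC, a half-site of nuclear factor I, read as GCCAA on the other strand; the matches do not overlap each other. Of 32851 promoters of the same length in the table, 4.84% held TAATTA and 41.5% held TTGGC. Six3 lies at chr17:85620584-85620833 (plus strand), Lmo1 at chr7:109175208-109175457 (minus strand), Igfbp2 at chr1:72824230-72824479 (plus strand) and Dmrta2 at chr4:109977775-109978024 (plus strand). The Six3 start site used lies 7226 bases from the start of the gene in the GENCODE annotation.

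Six3: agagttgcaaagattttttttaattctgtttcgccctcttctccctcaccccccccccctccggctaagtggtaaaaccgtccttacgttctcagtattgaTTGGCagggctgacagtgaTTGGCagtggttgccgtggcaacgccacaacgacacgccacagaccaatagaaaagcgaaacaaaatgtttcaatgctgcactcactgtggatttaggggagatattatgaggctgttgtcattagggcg
Lmo1: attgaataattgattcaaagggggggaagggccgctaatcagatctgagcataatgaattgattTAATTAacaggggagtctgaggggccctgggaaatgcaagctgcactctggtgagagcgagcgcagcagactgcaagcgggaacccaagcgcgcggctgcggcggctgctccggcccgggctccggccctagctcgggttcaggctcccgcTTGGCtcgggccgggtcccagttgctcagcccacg
Igfbp2: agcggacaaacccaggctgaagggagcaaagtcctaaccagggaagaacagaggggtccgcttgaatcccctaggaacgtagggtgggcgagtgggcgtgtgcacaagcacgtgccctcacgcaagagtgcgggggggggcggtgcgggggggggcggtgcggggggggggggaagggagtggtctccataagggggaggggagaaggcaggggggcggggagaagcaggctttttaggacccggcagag
Dmrta2: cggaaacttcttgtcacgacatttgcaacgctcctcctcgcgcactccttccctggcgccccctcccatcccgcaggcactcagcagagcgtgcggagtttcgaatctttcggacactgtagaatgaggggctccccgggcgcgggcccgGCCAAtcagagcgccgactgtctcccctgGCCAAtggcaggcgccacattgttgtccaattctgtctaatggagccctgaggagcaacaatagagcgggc

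Six3 held 2 TTGGC matches, at 149 and 130 bases before the start site, as counted to the first base of the match. Lmo1 held the only TAATTA match, 186 bases before its start site, and 1 TTGGC match 35 bases before it. Dmrta2 held 2 matches to GCCAA and Igfbp2 held none. These are letters in a window, and their use by a factor was not measured.

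Transcription factors that pattern the forebrain moved in both directions. The counts of list members below are read against all genes tested, of which 8.37% were higher and 8.08% lower in striatum without the ependymal-marker cells, and 15.3% and 10.3% as gated. Of 9 pallial factors tested without the ependymal-marker cells, 4 were lower in striatum and 1 was higher, with a median log2 difference of -0.39 against 0.00 over all 10463 genes tested (edgeR, adjusted p under 0.05 in each case); as gated 5 were lower and 1 higher. Otx1 (log2 difference -1.48), Emx2 (-1.02) and Nr2f1 (-0.65) fell with Dmrta2, while Nr2f2 rose (1.71). Of 9 subpallial factors, 5 were higher in striatum and 3 lower, with a median of 0.65 (5 and 3 of 10 as gated). Dlx1 (4.13), Dlx2 (4.85) and Meis1 (0.65) rose with Six3, while Zic2, Zic5 (-1.66) and Dbx2 (-0.90) fell. Neuroblasts also express Dlx1 and Dlx2. Dlx1 averaged 19.8 CPM in striatal astrocytes and 16.5 CPM in striatal microglia, and Dlx2 20.6 and 16.5 CPM, and the summed neuroblast markers given above were higher in striatum too. The lists and their members were chosen with earlier results of these data known, so their counts describe the data and are not independent support.

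Among 18 regional astrocyte markers known from other work, 6 were higher and 7 lower in striatum, with a median of 0.00 (7 and 8 as gated). Chrdl1, a secreted regulator of AMPA receptors known from cortical astrocytes, averaged 130 ± 22.4 CPM in motor cortex and 46.5 ± 10.8 CPM in striatum (SD, n = 6 each; log2 difference -1.48). The matrix gene Tnc rose by 2.38 on the log2 scale in striatum, and Id1 rose by 1.23. Gfap, Agt, Sparc, Mfge8 and Lhx2 did not pass the test.

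Of 14 genes of glutamate and GABA handling, 4 were lower in striatum and 1 higher, with a median of -0.20 (7 and 0 as gated). Slc6a11, the GABA transporter GAT-3, ran from 460 to 597 CPM in motor cortex and from 186 to 452 CPM in striatum (log2 difference -0.67, edgeR adjusted p = 0.00757). Its call was lost without motor cortex late replicate 1 (-0.53, edgeR adjusted p = 0.0673) and in the batches that held both regions (-0.57, 0.451). The glutamine transporter gene Slc38a3 (-0.87) and the neutral amino acid transporter gene Slc1a4 (-0.83) also fell. The glutamate transporter gene Slc1a3 averaged 3457 ± 160 CPM in motor cortex and 2874 ± 428 CPM in striatum (SD, n = 6 each), and glutamine synthetase, Glul, averaged 2623 ± 220 and 2058 ± 313 CPM. As gated both were lower in striatum (edgeR adjusted p = 0.0342 for Slc1a3 and 0.0114 for Glul), and without the ependymal-marker cells neither passed (0.22 and 0.105).

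Of 19 genes of potassium, water and ion transport, 6 were lower in striatum and 4 higher, with a median of -0.29 (9 and 3 as gated). Kcnj10, the main inward rectifier potassium channel of astrocytes and partner of Kcnj16, ran from 200 to 355 CPM in motor cortex and from 102 to 160 CPM in striatum, with no overlap (log2 difference -0.93, edgeR adjusted p = 0.000251). Car2, a carbonic anhydrase (-0.65), and the chloride channel gene Clcn2 (-1.06) also fell. The call of Car2 was lost without striatal control replicate 2 (edgeR adjusted p = 0.0527) or motor cortex control replicate 2 (0.063). Fxyd1 (0.84) and Fxyd6 (1.60), regulators of the sodium pump, rose.

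Of 22 receptor genes, 8 were lower in striatum and none higher, with a median of -0.34, and as gated 10 of 23 were lower and 2 higher. Gria2, an AMPA receptor subunit, ran from 1620 to 2673 CPM in motor cortex and from 392 to 851 CPM in striatum (log2 difference -1.57, edgeR adjusted p = 5.1e-07). Neurons also express it, at a UMI in 60.8% of thinned motor cortex neurons and 67.3% of striatal ones, and a UMI was found in 80.5% of thinned motor cortex astrocytes (91.5% unthinned) and 1.36% of thinned motor cortex microglia. In neurons it averaged 943 ± 135 CPM in motor cortex and 1194 ± 364 CPM in striatum (SD, n = 6 each), with overlapping pools. Adra1b, an alpha-1 adrenergic receptor, stood at 16.2 to 31.5 CPM in motor cortex and at 0 to 4.15 CPM in striatum. Neurons held more of it and differed the same way, at 72.6 CPM in motor cortex and 1.88 CPM in striatum. The adenosine receptor gene Adora1 averaged 57.2 ± 15.2 and 21.5 ± 4.24 CPM (SD, n = 6 each), and the GABA receptor genes Gabra2 (-1.42) and Gabbr2 (-0.83) and the adrenergic receptor gene Adra1a (-1.20) fell as well.

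Of 29 synapse-regulating and extracellular protein genes, 8 were higher and 5 lower in striatum, with a median of -0.14 (9 and 8 of 30 as gated). Apoe, the main lipid carrier of the brain, averaged 11267 ± 3338 CPM in motor cortex and 19097 ± 2665 CPM in striatum (SD, n = 6 each), and the motor cortex pools, up to 14870 CPM, lay below the striatal pools, from 15403 CPM (log2 difference 0.81, edgeR adjusted p = 0.000776). Cst3 (0.73), Ptn (0.83) and Mdk (1.06), secreted proteins, rose as well. Mertk, a receptor used in engulfing synapses, fell by 1.03 on the log2 scale.

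Of 31 metabolism genes, 8 were lower in striatum and 3 higher, with a median of -0.22 (13 and 3 as gated). Dio2, which makes active thyroid hormone, ran from 419 to 899 CPM in motor cortex and from 109 to 322 CPM in striatum, with no overlap (log2 difference -1.53). Pygm, which encodes 1 form of glycogen phosphorylase, fell by 2.17 on the log2 scale, and Ldha (-0.83) and Hmgcs1 (-1.33), enzymes of lactate and sterol synthesis, also fell. Phgdh, the entry enzyme of serine synthesis, rose by 1.11.

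Signalling factors moved both ways, with 6 of 31 higher, 7 lower and a median of -0.05, and the same counts as gated. The hedgehog pathway genes Gli1 (-2.08), Gli2 (-0.78) and Ptch1 (-0.78) fell in striatum. The BMP targets Id1, Id3 and Id4 (0.69) rose. Of the Notch targets, Hes5 (0.93) and Hey2 (0.85) rose and Hes1 (-0.77) fell.

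Part of the region differences in list genes were also called within batches. Of 90 called members of the 11 lists, 82 could be tested in the batches that held both regions, where 30 were called, beside 3.97% of all genes tested there. All 82 kept their direction, and the 4 pools of that fit are also part of the full one. Of those described above, Otx1, Emx2, Nr2f1, Slc1a4, Slc38a3, Fxyd1, Adora1, Mertk, Mdk, Hmgcs1, Ptch1, Apoe and Cst3 were among the members not called there. In the region where they were higher, Fxyd6, Adra1b, Adora1, Gabbr2 and Ldha averaged less in astrocytes than in neurons. Cst3, Mertk, Dlx1, Dlx2, Fxyd6 and Ldha stood less than 4 times above microglia there, Cst3 below them. Members of the lists were not held to the rule of the named genes.

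**Figure D3:**
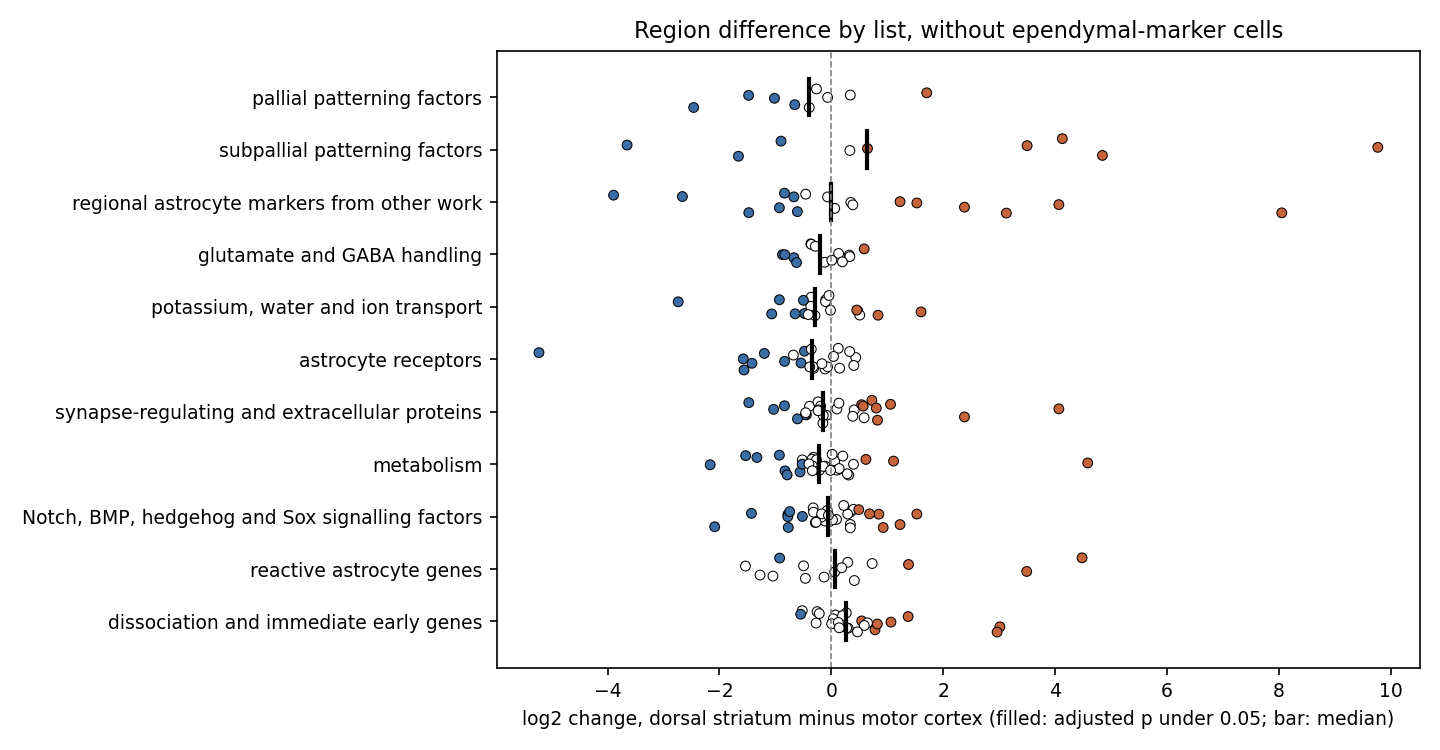
Log2 difference, striatum minus motor cortex, of each tested gene of 11 lists in gated astrocytes without the ependymal-marker cells (1 point per gene; filled points passed an adjusted p under 0.05, red higher and blue lower in striatum; the bar is the list's median). Called receptor genes all lie left of 0, and the subpallial factors spread furthest, from -3.65 to 9.77.

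The ependymal-marker cells moved some of these lists. Of the reactive astrocyte genes, 8 of 18 were higher and 4 lower in striatum as gated (median 0.73), and 3 of 15 higher and 1 lower without the 139 cells (median 0.06). Of 25 dissociation and immediate early genes, 15 were higher as gated and none lower (median 0.71), and without those cells 7 were higher and 1 lower (median 0.27). Atf3, a stress-induced factor, fell from a log2 difference of 2.37 as gated to 0.65 without them (edgeR adjusted p = 2.33e-08 and 0.148), and it stood at 1791 CPM in the ependymal-marker cells against 83.4 CPM in the other gated striatal cells. Fos was higher in striatum in both, averaging 1722 ± 285 CPM in motor cortex and 3711 ± 1157 CPM in striatum without these cells (SD, n = 6 each; log2 difference 1.07, edgeR adjusted p = 0.000985). All motor cortex mice carried Fos-CreER and all striatal mice Arc-CreER, so region and driver line cannot be told apart for this gene. Fos was also higher in striatal microglia (608 against 1116 CPM, log2 difference 0.95, edgeR adjusted p = 0.0114) and in striatal oligodendrocyte precursors (1065 against 2414 CPM, 1.31, 3.67e-05), and its difference in astrocytes did not pass the test against that in microglia (0.33, edgeR adjusted p = 0.593). Of the 25 genes of this list 1 was higher and 1 lower in striatal microglia, beside 3.3% and 1.27% of all genes, and 3 were higher and 1 lower in striatal oligodendrocyte precursors, beside 0.655% and 0.351%.

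Gfap and Vim, intermediate filament genes used as signs of reactivity, were unevenly spread over cells and pools. Gfap ran from 29.3 to 1348 CPM in motor cortex with a median of 55.1 CPM, and from 62.2 to 196 CPM in striatum with a median of 95.9 CPM, without the ependymal-marker cells. The regions overlapped, and the log2 difference was 0.06 (edgeR adjusted p = 0.955; -0.05 and 0.958 as gated). In motor cortex early replicate 2, 9 of 159 cells held 92.9% of the 425 Gfap UMIs and 98.6% of the 571 Vim UMIs. Cells with 5 or more UMIs of both genes together held 0 to 34.1% of the Gfap UMIs in the other motor cortex pools and 40 to 71.7% in the striatal pools as gated. In the batches that held both regions Gfap was lower in striatum without the ependymal-marker cells (log2 difference -1.55, edgeR adjusted p = 0.00334). The direction follows motor cortex early replicate 2, which stood at 1348 CPM against 139.7 CPM in the striatal pool of its batch, while in the other batch motor cortex stood at 40 CPM and striatum at 82.7 CPM.

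RNA of neuronal genes in the gated cells differed by pool. The 7 general neuronal markers summed to 155 to 291 CPM in the motor cortex pools, to 406 to 866 CPM in 5 striatal pools and to 3989 CPM in striatal late replicate 1, without the ependymal-marker cells. Spiny projection neurons are the main neurons of striatum. Their 10 markers summed to 272 to 572 CPM in 5 striatal pools and to 3091 CPM in striatal late replicate 1, in the same cells. In gated microglia of the same pools they summed to 130 to 543 CPM and, in striatal late replicate 1, to 1449 CPM. In motor cortex the sums were 238 to 605 CPM in astrocytes, mostly from Pde10a, and 7.5 to 19.6 CPM in microglia, with Tac1 and Drd2 at 0 in the astrocytes. Pde10a averaged 278.6 CPM in motor cortex astrocytes and 179.6 CPM in motor cortex neurons, so this sum does not measure neuronal RNA alone. Of the 8 markers tested, 7 were higher in striatal astrocytes, and the 9 tested in microglia were all higher in striatum, beside 3.3% of all genes tested in microglia. These genes were left out of the named genes by the rule.

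**Figure D4:**
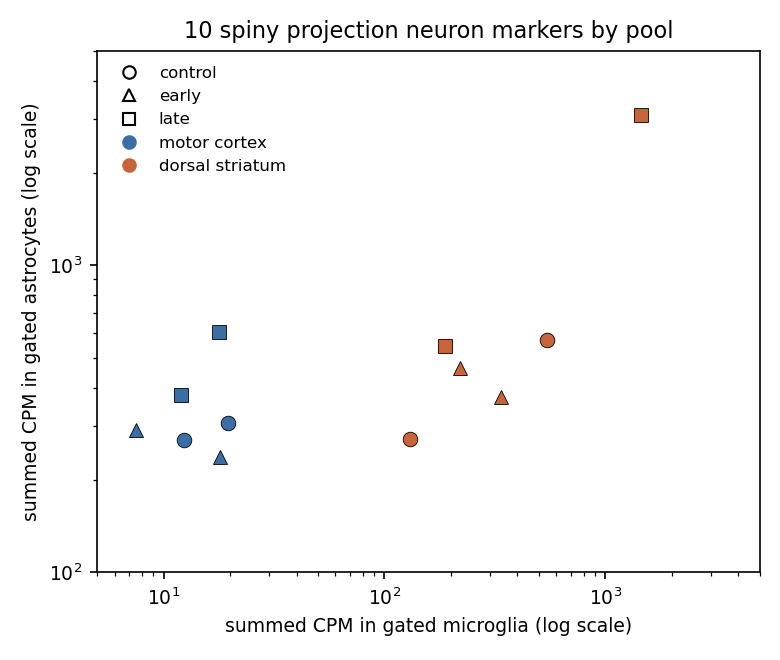
Summed CPM of 10 spiny projection neuron markers in gated microglia (horizontal) and in gated astrocytes without ependymal-marker cells (vertical), both on log scales, 1 point per pool. Striatal late replicate 1 lies furthest to the upper right, at 1449 and 3091 CPM, and the motor cortex pools lie at 7.5 to 19.6 CPM in microglia.

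The second question of the design is whether training changed these cells. In motor cortex no gene was called between stages. Early pools against controls gave 0 of 11284 genes (0%), with 561 at an unadjusted p under 0.05. Late pools against controls gave 0 (388 unadjusted), late pools against early ones gave 0 (437 unadjusted), and DESeq2 called 0 in each. Each stage had 2 pools in a region. In simulated counts, the test of early against control motor cortex called 11.5% of 200 genes changed by 1 on the log2 scale. It called 83.5% of 200 genes changed by 2, so smaller changes could go uncalled. Changes of the 30 named genes between motor cortex stages ran from -2.30 to 2.48 on the log2 scale, and none was called.

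In striatum 197 of 11284 genes (1.75%) differed between early and control as gated, 186 higher in early (1.65%) and 11 lower (0.0975%). Of the 186 genes, 185 (99.5%) stood at least 2 times higher in the ependymal-marker cells than in the other gated striatal cells, against 15.9% of all genes tested, and the share of these cells was 0 and 2.1% in the control pools and 10% and 8.67% in the early pools. The ependymal-marker cells are part of the striatal sums compared, so the 99.5% describes the called genes and is no test. Without the 139 cells 1 gene was called (0.00956%). Of the 197 genes, 91 could be tested without them, 87 of these changed less, and the median log2 change went from 1.68 to 0.27. Calb1, a calcium-binding protein, went from a log2 change of 2.55 (edgeR adjusted p = 0.00211) to 0.56 (0.999), and Gm19935 from 2.19 to -0.61. As gated the count was also 0 without the term for kit class, 24 by DESeq2, 117 without striatal control replicate 2 and 3 without striatal early replicate 1. The gene called in both fits was Rgs5, a pericyte marker, which stood at 22.8 and 100 CPM in the control pools and at 0.827 and 8.22 CPM in the early pools without those cells (log2 change -4.32, edgeR adjusted p = 0.00382). The 6 mural cell markers, Rgs5 among them, summed to 248.8 and 233.6 CPM in the control pools and to 17.4 and 57.5 CPM in the early pools without those cells. As gated the sums were 248.8 and 230.5 CPM in the control pools and 185.6 and 177.1 CPM in the early pools, and their part in the change was not tested.

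**Figure D5:**
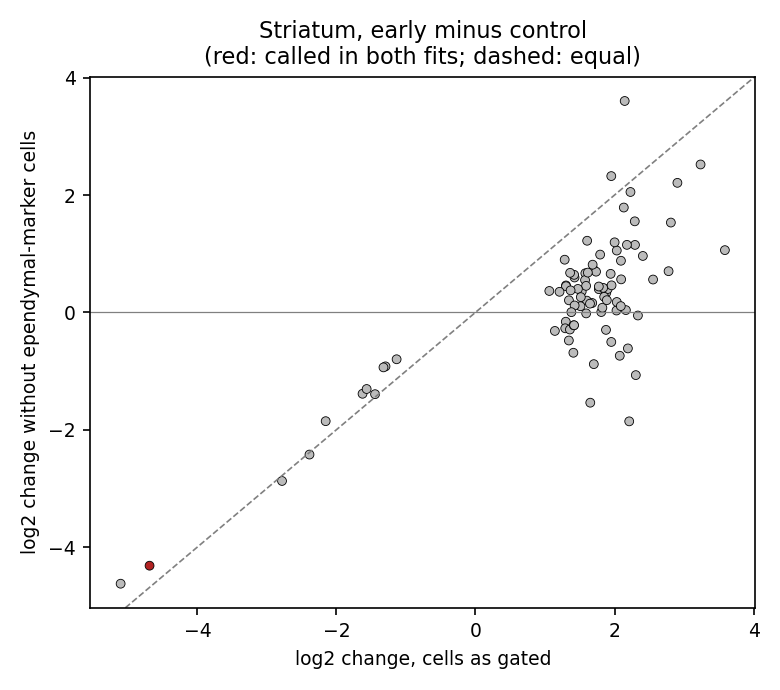
Log2 change, early minus control in striatum, of the 91 genes called as gated that could be tested in both fits (horizontal: cells as gated; vertical: without the ependymal-marker cells; 1 point per gene). Most genes higher as gated lie below the dashed line of equal change, and Rgs5, in red, was called in both.

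Late striatal pools differed from control in 3 of 11284 genes as gated (0.0266%), all higher in late, and the same 3 were called without the ependymal-marker cells (of 10463, 0.0287%). Among them were Tac1 (log2 change 3.12, edgeR adjusted p = 0.0429), a neuropeptide gene of spiny projection neurons, and Ly6h (2.46). Striatal late replicate 1, the pool with most neuronal RNA, held Tac1 at 432 CPM without the ependymal-marker cells, and leaving this pool out of the fit left no gene called as gated. The late group then holds 1 pool, which is assumed to vary like the other groups, and the log2 changes were 1.82 for Tac1 and 2.20 for Ly6h. Late against early gave 0 calls (0%), with 912 genes at an unadjusted p under 0.05 and 0 by DESeq2. Whether a stage difference itself differed between the regions was tested too, with 0 genes called for early (954 at an unadjusted p under 0.05, 50 by DESeq2) and 0 for late (562, and 1 by DESeq2). With the ependymal-marker cells left out, Ly6h alone was called for late (0.00956%; log2 difference 4.49, edgeR adjusted p = 0.00288). None of the 30 named genes was called in any stage comparison without the ependymal-marker cells, and as gated Car8 alone passed, between early and control striatum (adjusted p = 0.0409, edgeR).

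Libraries labelled contralateral were compared with the ipsilateral ones of the same trained pools, with 8575 genes tested. In motor cortex 6 genes were higher contralaterally (0.07%; edgeR adjusted p of 0.0479 or less), among them Mbp (log2 change 3.03), Ptgds (3.82), Mobp (3.37) and Mal (5.33), genes of mature oligodendrocytes, and Fth1 (0.71). Without the cells that held oligodendrocyte markers no gene was called, and Mbp, Ptgds, Mobp and Mal no longer passed the filter on low counts. In striatum 4 genes, all hemoglobins, were lower contralaterally (0.0466%), and over both regions 1 hemoglobin gene, Hba-a1, was lower (0.0117%). With the ependymal-marker cells left out, 9 of 7897 genes were higher contralaterally in motor cortex (0.114%), the genes named above among them, and none of the 4 hemoglobin genes was called in striatum (edgeR adjusted p = 0.168 or more). The hemoglobin gene Hbb-bt was among the 9 higher in motor cortex (log2 change 2.00, edgeR adjusted p = 0.0107). Acta2, a gene of vascular smooth muscle, was then the 1 gene called in striatum (0.0127%; log2 change -4.55, edgeR adjusted p = 0.0434), and it was also the 1 gene called over both regions (-2.63, 0.0416). As gated no called gene had libraries of 1 hemisphere all above those of the other, and DESeq2 called none.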

How the data were processed

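Gene-by-cell matrices of raw UMI counts were deposited by the authors for each library. Per the submitters' processing notes they were made with Cell Ranger 3.1.0 on mm10, while the matrix headers give software version 3.0.2. Cells with at least 1000 UMIs, at least 500 genes and at most 20% mitochondrial UMIs were kept, which left 103715 of 127901 barcodes. Counts of gated cells were summed per pool. They were tested with edgeR 4.0.16 (quasi-likelihood, TMM, low counts filtered by group) with terms for the 6 groups and the kit class, and adjusted by Benjamini-Hochberg over all genes tested and called under 0.05. The kit class came from shared barcodes and is not a label. Hemispheres were compared with the pool as a block. DESeq2 1.42.0 and limma 3.58.1 served as alternatives, and the fits were checked on simulated counts. R 4.3.3 and Python 3.11.15 were used. CPM are the counts of a gene over all counts of the summed cells of a pool.

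Named genes for the region were those called with a log2 difference of at least 1, no overlap between the pools of the regions, and a CPM at least 4 times that of gated microglia and no less than that of gated neurons; the 15 with the smallest adjusted p in each direction were taken, in the cells without ependymal markers. From each list up to 4 called members, and Gfap, Vim, Slc1a3, Glul, Kcnj10 and Slc6a11, were also named, and further members by value after they were seen. Stage and hemisphere comparisons name at most 5 called genes, and further ones after their values were seen. Some genes that these rules take are not reported here. The 11 genes of the gate were not tested. The cells, lists and tests were chosen with earlier results of these data known. Leaving out the ependymal-marker, neuroblast-marker or oligodendrocyte-marker cells was chosen after seeing the data. The labels do not say that pools of a group came from separate cohorts. Doublets were scored with Scrublet as run in scanpy 1.11.5 and kept. Gene positions are from GENCODE (54079 of 54235 features matched by gene ID), and promoter bases from RefSeq (22 of the 30 named genes had an entry).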

Additional observations from a re-analysis of the deposited data

Results flagged for a closer look

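In groups of 6 pools, 1 pool lay far from the other 5 in 15 of 160 groups examined. Chance flags about 1 in 20 only for independent, normally spread values. These groups share pools and some lie near 0, so the number flagged is not read against that rate. All values are CPM without the ependymal-marker cells. Motor cortex early replicate 2 was the high pool for Crym (25.38), Mgst1 (101.5), Nes (25.38), Rarres2 (69.8), Gfap (1348.3) and Vim (1811.5), and 9 of its cells held most of the Gfap and Vim UMIs. Motor cortex control replicate 2 was low for Id1 (169.7) and the one pool above 0 for Cd109 (0.6982), and motor cortex late replicate 2 was low for Nnat (7.495). Striatal late replicate 1, the pool with most neuronal RNA, was high for Prss56 (112.3), 1110017D15Rik (14.03) and Vim (305.2) and low for Otx1 (3.508). Striatal control replicate 1 was high for Id3 (3817.6) and Car2 (512.2). For Crym, Mgst1, Id3 and Prss56 the pool set apart still lay on its own region's side of all pools of the other region, which the rule of the named genes asked for.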

How the results depend on the processing

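With 2 pools per stage, 1 pool could decide a stage count. Of 77 genes followed through the settings (those taken by the naming rule in either set of cells, and list members), 49 kept direction and call under each setting of the cells as gated, and 44 of these also in each of the 16 fits without the ependymal-marker cells that tested them. As gated, the region count of 2892 became 1575 without the kit class term, 1911 with a replicate block in its place, 721 in the batches with both regions, 402 in class A pools alone, 1564 at a marker sum of 12, 1240 with equal cells per pool, 1089 with pool sums thinned to the smallest, 1721 without the ependymal-marker cells and 1208 without these and the neuroblast-marker cells; leaving out 1 pool gave 1794 to 3104. The fits on fewer cells or pools also tested fewer genes in most cases. Without the ependymal-marker cells the count of 1721 became 332 in the shared batches and 1147 by DESeq2, and 985 to 1935 with 1 pool left out. The count against microglia ran from 752 to 1373.

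Without the filter on low counts the stage counts became 45 for early and 21 for late pools against controls and 24 for late against early ones in motor cortex, 390, 88 and 167 in striatum, and 51 and 53 for the differences between regions (early, late). The early striatal count of 197 became 0 without the kit class term, 5 with the replicate block, 24 by DESeq2, 0 without cells of 5 or more Gfap and Vim UMIs, 1 without the ependymal-marker cells and 1 without these and the neuroblast-marker cells. The late striatal count of 3 became 0 without the kit class term, 0 with the replicate block and 19 without the Gfap and Vim cells. The late difference between regions went from 0 to 1 by DESeq2, 1 without the Gfap and Vim cells, 1 without the ependymal-marker cells and 1 without both other cell groups, and the early difference to 50 by DESeq2. With 1 pool left out, in the same order, the counts were 0 to 24, 0 to 9 and 0 to 18 in motor cortex, 3 to 257, 0 to 107 and 0 to 147 in striatum, and 0 to 20 and 0 to 56 for the differences between regions. The cause of these changes was not tested.

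Hemisphere counts became 0 without the pool block and 0 by DESeq2 in all 3 comparisons. Over both regions the count of 1 became 0 with RLE size factors, 19 without the filter and 0 to 4 with 1 pool left out. In motor cortex 6 became 33 without the filter, 0 without the oligodendrocyte-marker cells and 4 to 13 with 1 pool left out, and in striatum 4 became 13, then 1 without the ependymal-marker cells, and 1 to 7.

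The difference in share turned to -0.502 percentage points with microglia out of the denominator and ran from -0.186 to 1.78 with 1 pool left out; that in UMIs per cell ran from -65.9 to 218. Gfap, at -0.05, turned to 0.65 with limma-voom, 1.45 in class A pools, 0.024 per library, 0.23 with Snap25 at 0, 0.21 without doublets, 0.16 with equal cells, 0.061 without the ependymal-marker cells and 0.11 without these and the neuroblast-marker cells, and ran from -0.404 to 1.03 with 1 pool left out. Vim turned to -0.35 in the shared batches, and Gm19935 (early against control) to -0.12 without the Gfap and Vim cells and -0.61 without the ependymal-marker cells, with or without the neuroblast-marker cells.

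Replicate numbers do not tie pools to shared animals. The deviations of same-numbered pools from their group means correlated at 0.24, 0.00 and 0.41 between the regions (control, early, late), so the replicate block is given here only.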

Other observations

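Genes of sterol synthesis were lower in striatal astrocytes. The list of 20 enzymes of the pathway was written after the values of some members were seen, so its count is a description and has no test of its own. Without the ependymal-marker cells 17 of 20 enzymes were lower in striatum and none higher (edgeR, adjusted p under 0.05), with a median log2 difference of -0.96, beside 8.08% of all genes tested. As gated 19 of 20 were lower, with a median of -1.08, beside 10.3%. Msmo1, a demethylase of the pathway, averaged 1455 ± 186 CPM in motor cortex and 532 ± 131 CPM in striatum (SD, n = 6 each), and its motor cortex pools, from 1202 CPM, lay above its striatal pools, up to 742 CPM. Scd1, a fatty acid desaturase, fell by 1.89 on the log2 scale. Srebf2, the gene of the factor that drives the pathway, did not pass (log2 difference -0.29, edgeR adjusted p = 0.188). In microglia 0 of 16 and in oligodendrocyte precursors 0 of 20 of these enzymes were called, where 4.57% and 1.01% of all genes were. Whether the astrocyte difference exceeds theirs was not tested for the list. Microglia held little Hmgcs1, at 20.3 CPM in motor cortex and 26.6 CPM in striatum. Neurons held it at 205.6 and 140 CPM, with overlapping pools, and their region difference was not tested. In astrocytes of the batches that held both regions Hmgcs1 was not called, as given above.

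Genes that handle thyroid hormone, picked out after their values were seen, moved in both directions. The binding protein gene Crym was higher in striatum, and the activating deiodinase gene Dio2 was lower (log2 difference -1.53). Slco1c1, a transporter of the hormone, did not pass (-0.34, edgeR adjusted p = 0.17).

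The wpre reporter sequence averaged 139 ± 24.0 CPM in motor cortex and 172 ± 51.9 CPM in striatum (SD, n = 6 each, log2 difference 0.25, edgeR adjusted p = 0.391). In the same order it averaged 37.5 and 34.3 CPM in microglia, 67.8 and 74.1 CPM in oligodendrocyte precursors and 56.8 and 141.6 CPM in neurons. The tdtomato sequence averaged 0.906 and 2.01 CPM in these astrocytes. Whether the wpre counts come from labelled astrocytes was not tested.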
